A study of Mus musculus with 6 samples.

Results

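The expression of 41 genes of DNA replication and nucleotide synthesis was described in mouse bladder urothelium at 3 stages, namely invasive carcinoma, carcinoma in situ and normal urothelium. A gene belonged to the set when the array annotation gave its symbol to a probe set with no other symbol, and the probe set with the highest mean over the 6 arrays stood for the gene. By this rule 40 of the 41 genes were measured, out of 18193 genes in all, and Chaf1a was not analysed here. The series holds 2 arrays of invasive carcinoma and 2 of carcinoma in situ, a flat lesion within the epithelium, both from H-ras+/-, p53-/- mice, and 2 of normal urothelium from wild-type mice. All mice were FVB/N and 8 months old. Cells were taken by laser capture, which lifts chosen cells out of a stained frozen section under a microscope. Genotype and lesion therefore changed together against normal urothelium, and only invasive carcinoma against carcinoma in situ held the genotype constant. The promoter that drives the H-ras transgene and the tissue in which p53 was lost were not given in the labels. The labels did not say whether the 2 arrays of a group came from separate mice, so p-values measured only the spread between arrays.

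Chromosomal DNA is copied once in each cell cycle. In G1 the origin recognition complex, Cdc6 and Cdt1 load the ring-shaped Mcm2 to Mcm7 helicase onto origins, and geminin later blocks Cdt1 so that an origin is not used again. In S phase the Cdc7 kinase with its activator Dbf4, together with Cdc45 and the GINS complex, starts the helicase, primase and the polymerases copy the strands behind it on a sliding clamp, and flap endonuclease and ligase join the short fragments of the lagging strand. Enzymes such as ribonucleotide reductase supply the deoxynucleotides. Many of these genes are known targets of E2F factors, which the Rb protein holds in check. Most adult urothelial cells divide rarely.

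Values are log2 signals made with RMA, a method that corrects background and brings all arrays to a common distribution, so a step of 1 is a doubling of signal. Array medians lay between 6.07 and 6.14. The pairs of arrays were not equally close: over all genes the SD of the difference within a pair was 0.425 for invasive carcinoma, 0.220 for carcinoma in situ and 0.689 for normal urothelium. Of the 40 measured genes 8 (20%, against 13.7% of all genes) differed by over 1 between the normal arrays, led by Pcna (-2.84 in normal array 2 minus normal array 1), and none differed by over 1 within a lesion pair. Xist, which is transcribed from the inactive X chromosome of females, read 10.28 and 6.43 in invasive carcinoma, 13.17 and 13.33 in carcinoma in situ, and 6.85 and 13.37 in normal urothelium. The Y-linked gene Kdm5d read 6.58 and 5.96 in invasive carcinoma, 2.90 and 2.84 in carcinoma in situ, and 8.28 and 7.62 in normal urothelium. Normal array 2 and invasive array 1 thus carried signal of both genes. Some counts without these arrays are given, but not the number of replication genes then higher in invasive carcinoma against normal urothelium. That fit leaves 1 array each of normal urothelium and invasive carcinoma, so its counts are no check of the set. Both carcinoma in situ arrays had high Xist and the lowest Kdm5d, while all normal and invasive arrays had higher Kdm5d. In each comparison with carcinoma in situ this difference cannot be told apart from the lesion, also without those 2 arrays. Sex was not in the labels.

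Replication genes were higher in both lesions than in normal urothelium. In carcinoma in situ 16 of 40 rose and 0 fell at an adjusted p under 0.05, where 5.74% of all genes rose and 3.04% fell. In invasive carcinoma 20 of 40 rose and 1 fell, where 12.6% of all genes rose and 7.46% fell. The median change was 1.02 in carcinoma in situ and 1.13 in invasive carcinoma, while the median over all genes was 0.01 and 0.00 in these comparisons. Both arrays of carcinoma in situ lay above both normal arrays for 32 of the 40 genes (29.3% of all genes) and below them for 1 (25.1%), and both arrays of invasive carcinoma did so for 28 (29.7%) and 2 (27.1%). Every lesion array lay above both normal arrays for 27 of the 40 genes (19.8% of all genes) and below both for 1 gene, Orc1 (16.9%). The rise was called in both lesions for 15 genes (4.63% of all genes) and in at least 1 lesion for 21 (13.7%). The lesions were compared with the same normal arrays, so these counts are not independent.

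The count in carcinoma in situ depended on having both of its arrays. With either of them left out, neither a replication gene nor any other gene passed there. Each fit without an array leaves a single array in a group, and its counts over all genes moved as well. These counts are therefore no check of the set, and are given beside those of all genes in the last section. In invasive carcinoma the count also depended on the array left out. Cdt1, Mcm5, Dbf4, Rpa2, Rrm2, Chaf1b and Ung passed there in each of the 6 fits that left out an array, and the other 14 called there, Tyms included, lost the call in at least 1 of them.

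**Figure D1:**
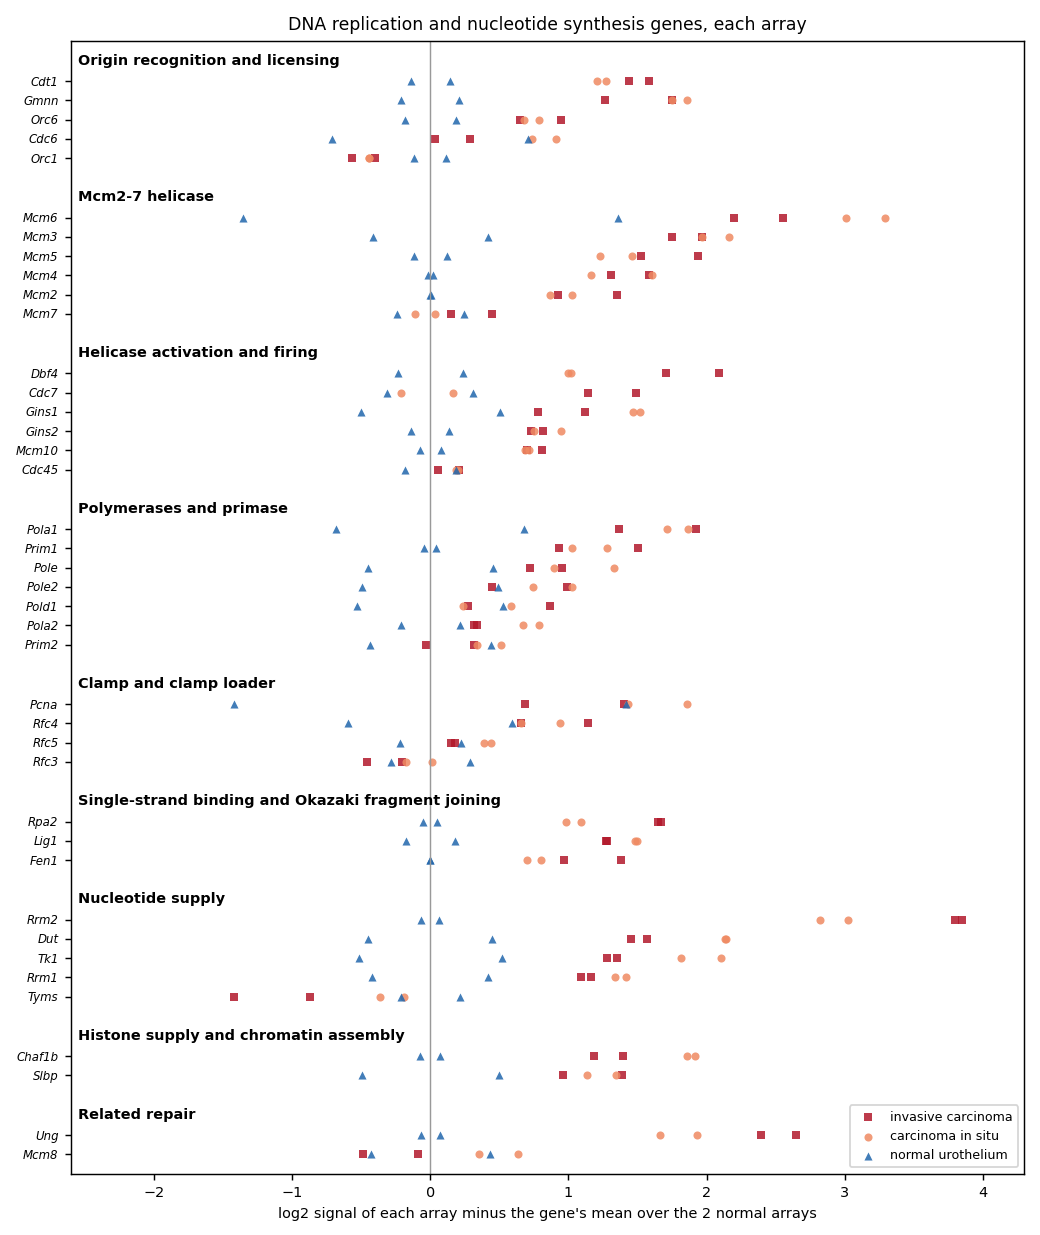
Log2 signal of each of the 40 measured genes in every array (x axis), minus the gene's mean over the 2 normal arrays, with genes grouped by role down the page and 1 point per array. Lesion points lie right of both normal points for 27 genes, and the normal points of Pcna are 2.84 apart.

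Of the 5 genes of origin recognition and licensing, 3 rose in invasive carcinoma and 2 in carcinoma in situ. Gmnn encodes geminin, the inhibitor of Cdt1, and read 8.81 and 8.33 in invasive carcinoma, 8.82 and 8.92 in carcinoma in situ, and 7.28 and 6.85 in normal urothelium. All lesion arrays were above both normal arrays, and the change was 1.50 ± 0.24 (adjusted p = 0.0111) in invasive carcinoma and 1.80 ± 0.24 (adjusted p = 0.0146) in carcinoma in situ. Cdt1, the loader that geminin binds, read 10.11 and 10.25 in invasive carcinoma, 9.94 and 9.88 in carcinoma in situ, and 8.53 and 8.81 in normal urothelium. Its groups did not overlap, and it rose by 1.51 ± 0.18 (adjusted p = 0.00407) in invasive carcinoma and by 1.24 ± 0.18 (adjusted p = 0.0163) in carcinoma in situ. The loader and its inhibitor were thus higher together. Orc6, a subunit of the origin recognition complex, read 7.94 and 8.24 in invasive carcinoma, 8.08 and 7.97 in carcinoma in situ, and 7.48 and 7.11 in normal urothelium. It was highest in the lesions and rose in invasive carcinoma by 0.80 ± 0.21 (adjusted p = 0.0468), while the change in carcinoma in situ, 0.73 ± 0.21 (adjusted p = 0.0944), did not pass. Orc1, the largest subunit of the same complex, had lower values in every lesion array, with 6.69 and 6.85 in invasive carcinoma, 6.81 and 6.82 in carcinoma in situ, and 7.38 and 7.14 in normal urothelium. Its change did not pass (-0.49 in invasive carcinoma and -0.44 in carcinoma in situ). A further Orc1 probe set, below the array medians, went the other way, with 5.19 and 5.25 in invasive carcinoma, 5.25 and 5.22 in carcinoma in situ, and 5.01 and 4.58 in normal urothelium. There all lesion arrays were above both normal arrays, and its change did not pass either (0.42 in invasive carcinoma and 0.44 in carcinoma in situ). Cdc6, the ATPase that loads the helicase with Cdt1, read 7.08 and 6.83 in invasive carcinoma, 7.53 and 7.71 in carcinoma in situ, and 7.51 and 6.09 in normal urothelium. Normal array 1 was level with carcinoma in situ and normal array 2 was the lowest, and neither change passed.

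Of the 6 subunits of the Mcm2 to Mcm7 helicase, which unwinds the double strand, Mcm2, Mcm3, Mcm4 and Mcm5 rose in both lesions. Mcm3 read 9.32 and 9.10 in invasive carcinoma, 9.52 and 9.33 in carcinoma in situ, and 7.77 and 6.94 in normal urothelium. Both normal arrays were below every lesion array, and the change was 1.86 ± 0.30 (adjusted p = 0.0112) in invasive carcinoma and 2.07 ± 0.30 (adjusted p = 0.0172) in carcinoma in situ. Mcm5 read 9.69 and 10.10 in invasive carcinoma, 9.63 and 9.39 in carcinoma in situ, and 8.04 and 8.28 in normal urothelium. Its 3 groups did not overlap, with a change of 1.73 ± 0.22 (adjusted p = 0.0051) in invasive carcinoma and 1.35 ± 0.22 (adjusted p = 0.0226) in carcinoma in situ. Mcm4 read 10.15 and 9.87 in invasive carcinoma, 10.16 and 9.73 in carcinoma in situ, and 8.58 and 8.54 in normal urothelium. The lesions overlapped each other well above the normal arrays, at 1.45 ± 0.21 (adjusted p = 0.00836) in invasive carcinoma and 1.38 ± 0.21 (adjusted p = 0.0198) in carcinoma in situ. Mcm2 rose by 1.14 ± 0.20 (adjusted p = 0.0144) in invasive carcinoma and by 0.95 ± 0.20 (adjusted p = 0.0455) in carcinoma in situ. Mcm6 had the widest gap of the 6 but did not pass, with 8.70 and 8.34 in invasive carcinoma, 9.15 and 9.43 in carcinoma in situ, and 7.50 and 4.78 in normal urothelium. Its normal arrays differed by more than the lesion arrays did from normal array 1, and its adjusted p was 0.107 in invasive carcinoma and 0.0799 in carcinoma in situ. Mcm7 read 11.21 and 11.50 in invasive carcinoma, 10.95 and 11.09 in carcinoma in situ, and 10.81 and 11.30 in normal urothelium. The normal arrays overlapped those of each lesion, both invasive arrays were above both of carcinoma in situ, and no change passed.

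Of the 6 genes of helicase activation and origin firing, 4 rose in invasive carcinoma and 1 in carcinoma in situ. Dbf4, the activating subunit of the Cdc7 kinase, read 9.18 and 8.80 in invasive carcinoma, 8.09 and 8.11 in carcinoma in situ, and 7.33 and 6.86 in normal urothelium. The 3 groups were in steps without overlap, and the rise in invasive carcinoma was 1.90 ± 0.23 (adjusted p = 0.00473), beside 1.0 ± 0.23 (adjusted p = 0.0569) in carcinoma in situ, which did not pass. Cdc7, the kinase itself, read 7.18 and 7.53 in invasive carcinoma, 5.83 and 6.20 in carcinoma in situ, and 6.35 and 5.73 in normal urothelium. Both invasive arrays were above the other 4, which overlapped: the change was 1.32 ± 0.28 (adjusted p = 0.0261) in invasive carcinoma and -0.02 ± 0.28 (adjusted p = 0.972) in carcinoma in situ. A further Cdc7 probe set, below the array medians, was lower in invasive carcinoma without passing. It changed by -0.47 ± 0.20 (adjusted p = 0.174) there and by -0.39 ± 0.20 (adjusted p = 0.312) in carcinoma in situ. Gins2, a subunit of the GINS complex that joins the helicase at the fork, read 7.88 and 7.96 in invasive carcinoma, 7.90 and 8.09 in carcinoma in situ, and 7.29 and 7.01 in normal urothelium. The lesions overlapped each other above both normal arrays, and it rose by 0.77 ± 0.18 (adjusted p = 0.0337) in invasive carcinoma and by 0.85 ± 0.18 (adjusted p = 0.0456) in carcinoma in situ. Mcm10, a factor of helicase activation, rose in invasive carcinoma by 0.75 ± 0.16 (adjusted p = 0.0251), beside 0.70 ± 0.16 (adjusted p = 0.0526) in carcinoma in situ. Gins1, another GINS subunit, read 7.46 and 7.12 in invasive carcinoma, 7.81 and 7.86 in carcinoma in situ, and 6.84 and 5.84 in normal urothelium, and Cdc45, the helicase cofactor, read 6.99 and 7.14 in invasive carcinoma, 7.13 and 7.12 in carcinoma in situ, and 6.75 and 7.12 in normal urothelium. Gins1 was higher in all lesion arrays without passing, and for Cdc45 normal array 2 was level with the lesion arrays and no change passed.

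Primase makes the RNA primers that polymerase alpha extends, and of the 7 genes of primase and the polymerases Prim1 alone passed in either lesion with the probe set used, while Pold1 was called through a further probe set. Prim1, the catalytic primase subunit, read 7.31 and 7.88 in invasive carcinoma, 7.66 and 7.41 in carcinoma in situ, and 6.42 and 6.34 in normal urothelium. All lesion arrays were above the normal arrays, and it rose by 1.22 ± 0.24 (adjusted p = 0.0197) in invasive carcinoma and by 1.15 ± 0.24 (adjusted p = 0.0425) in carcinoma in situ. A further Prim1 probe set of similar signal did not pass, and its normal arrays were far apart, at 7.16 and 5.15. There invasive carcinoma, at 7.25 and 6.98, overlapped normal urothelium. The change was 0.96 ± 0.62 (adjusted p = 0.36) in invasive carcinoma and 1.48 ± 0.62 (adjusted p = 0.226) in carcinoma in situ. Pola1, the catalytic subunit of polymerase alpha, read 7.80 and 7.25 in invasive carcinoma, 7.60 and 7.75 in carcinoma in situ, and 6.56 and 5.20 in normal urothelium. Its lesion arrays were also all above normal, yet the normal pair was far apart and neither change passed. The difference was 1.64 ± 0.46 (adjusted p = 0.0601) in invasive carcinoma and 1.79 ± 0.46 (adjusted p = 0.076) in carcinoma in situ. Pole, the catalytic subunit of the leading strand polymerase epsilon, read 6.56 and 6.79 in invasive carcinoma, 6.74 and 7.17 in carcinoma in situ, and 6.29 and 5.38 in normal urothelium, and did not pass. Pola2, Prim2, Pold1 and Pole2 had differences of 0.14 to 0.72 in invasive carcinoma and of 0.41 to 0.88 in carcinoma in situ, with no call.

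None of the 4 genes of the sliding clamp and its loader passed in either lesion, also at an unadjusted p under 0.05. Pcna, the clamp that holds polymerases on DNA, read 11.06 and 10.35 in invasive carcinoma, 11.09 and 11.51 in carcinoma in situ, and 11.08 and 8.24 in normal urothelium. Normal array 1 was level with the lesions and normal array 2 was the lowest of all, so that the change was 1.04 ± 0.89 (adjusted p = 0.481) in invasive carcinoma and 1.64 ± 0.89 (adjusted p = 0.336) in carcinoma in situ. Rfc4, a subunit of the loader that opens the clamp, read 7.0 and 7.48 in invasive carcinoma, 7.28 and 6.99 in carcinoma in situ, and 5.74 and 6.93 in normal urothelium. It was highest in the lesions, with normal array 2 close to them. Rfc3 and Rfc5, other loader subunits, had differences of -0.33 and 0.16 in invasive carcinoma and of -0.08 and 0.41 in carcinoma in situ.

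The 3 genes of single-strand binding and Okazaki fragment joining all rose in invasive carcinoma, and Rpa2 and Lig1 rose in carcinoma in situ. Rpa2, a subunit of the complex that covers single-stranded DNA, read 8.57 and 8.55 in invasive carcinoma, 8.00 and 7.88 in carcinoma in situ, and 6.85 and 6.95 in normal urothelium. The groups stood in 3 steps without overlap, at 1.66 ± 0.15 (adjusted p = 0.00202) in invasive carcinoma and 1.04 ± 0.15 (adjusted p = 0.0179) in carcinoma in situ. A further Rpa2 probe set of lower signal did not pass. It changed by 0.55 ± 0.27 (adjusted p = 0.2265) in invasive carcinoma and by 1.11 ± 0.27 (adjusted p = 0.0683) in carcinoma in situ. Lig1, the ligase that seals the fragments, read 9.13 and 9.14 in invasive carcinoma, 9.34 and 9.36 in carcinoma in situ, and 7.68 and 8.04 in normal urothelium. It was highest in carcinoma in situ, at 1.49 ± 0.18 (adjusted p = 0.0118) above normal urothelium, beside 1.27 ± 0.18 (adjusted p = 0.0075) in invasive carcinoma. Fen1, the endonuclease that trims the flap before ligation, read 10.49 and 10.91 in invasive carcinoma, 10.33 and 10.22 in carcinoma in situ, and 9.53 and 9.53 in normal urothelium. Its rise passed in invasive carcinoma, at 1.17 ± 0.19 (adjusted p = 0.012), and the value in carcinoma in situ was 0.75 ± 0.19 (adjusted p = 0.0763).

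Nucleotide supply held the largest change of the set. Rrm2, the regulated subunit of ribonucleotide reductase, which makes deoxynucleotides, read 10.40 and 10.45 in invasive carcinoma, 9.63 and 9.42 in carcinoma in situ, and 6.54 and 6.67 in normal urothelium. The 3 groups were far apart with no overlap, and Rrm2 rose by 3.82 ± 0.16 (14.1-fold, adjusted p = 0.000419) in invasive carcinoma and by 2.92 ± 0.16 (7.59-fold, adjusted p = 0.0033) in carcinoma in situ. Rrm1, the large subunit, rose by 1.13 ± 0.29 (adjusted p = 0.0466) in invasive carcinoma and 1.38 ± 0.29 (adjusted p = 0.0458) in carcinoma in situ. Dut, which removes dUTP and so keeps uracil out of DNA, read 8.82 and 8.70 in invasive carcinoma, 9.38 and 9.38 in carcinoma in situ, and 7.70 and 6.80 in normal urothelium. It was highest in carcinoma in situ and above both normal arrays in every lesion array, at 1.51 ± 0.31 (adjusted p = 0.0222) in invasive carcinoma and 2.13 ± 0.31 (adjusted p = 0.0167) in carcinoma in situ. Tk1, the thymidine kinase of the salvage path, read 7.26 and 7.19 in invasive carcinoma, 7.72 and 8.01 in carcinoma in situ, and 6.42 and 5.39 in normal urothelium. All lesion arrays were above the normal arrays, and the rise passed in carcinoma in situ, at 1.96 ± 0.35 (adjusted p = 0.0303), and just missed the threshold in invasive carcinoma, at 1.32 ± 0.35 (adjusted p = 0.052). Tyms, thymidylate synthase, went the other way, with 5.30 and 4.75 in invasive carcinoma, 5.80 and 5.98 in carcinoma in situ, and 6.38 and 5.95 in normal urothelium. It fell in invasive carcinoma, at -1.14 ± 0.26 (adjusted p = 0.0315), and the difference was -0.28 ± 0.26 (adjusted p = 0.593) in carcinoma in situ. Its signal was below the array median on 5 of the 6 arrays, and a further probe set annotated to both Tyms and Tyms-ps was not used under the rule.

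**Figure D2:**
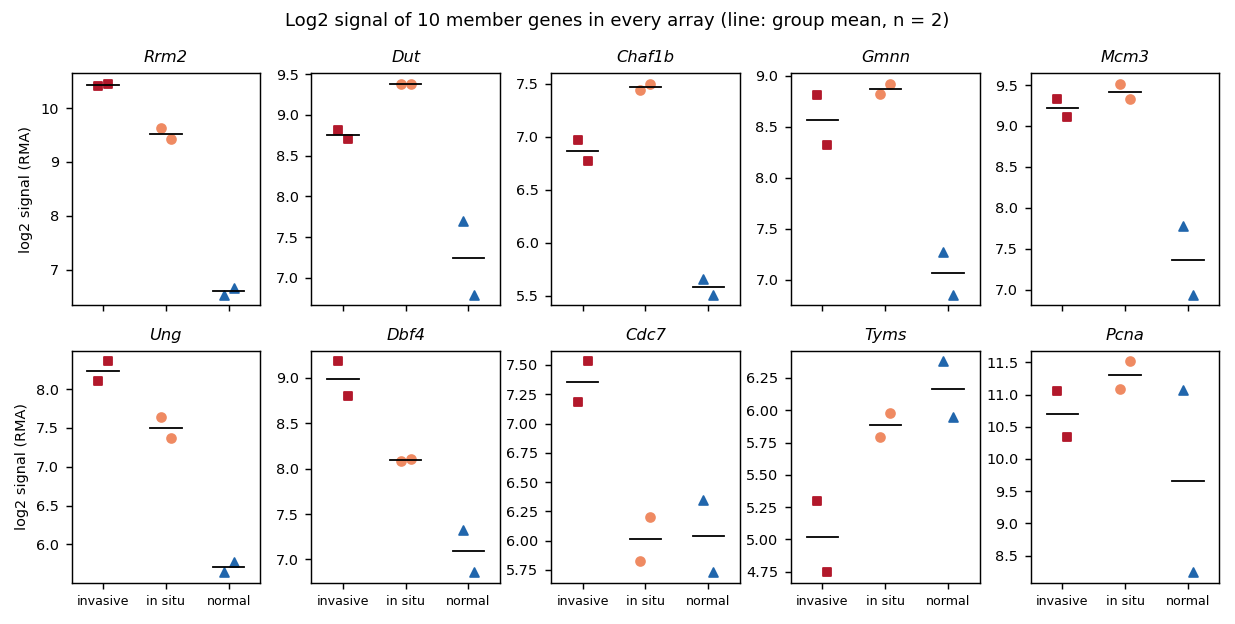
Log2 signal (y axis) of 10 genes in each array, with invasive carcinoma left, carcinoma in situ in the middle and normal urothelium right. Points are arrays and lines are group means of 2 arrays. Rrm2, Ung and Dbf4 stand in 3 steps, Cdc7 is high in invasive carcinoma, and Tyms is lowest there.

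Of the genes of histone supply and chromatin assembly 2 were measured. Chaf1b, a subunit of the chromatin assembly factor that places histones behind the fork, read 6.97 and 6.76 in invasive carcinoma, 7.44 and 7.50 in carcinoma in situ, and 5.65 and 5.51 in normal urothelium. All lesion arrays were above the normal arrays, those of carcinoma in situ highest, and the rise was 1.29 ± 0.17 (adjusted p = 0.00555) in invasive carcinoma and 1.89 ± 0.17 (adjusted p = 0.00583) in carcinoma in situ. Slbp, which binds the stem-loop of histone mRNAs, read 9.86 and 9.43 in invasive carcinoma, 9.61 and 9.82 in carcinoma in situ, and 8.97 and 7.98 in normal urothelium. It was higher in all lesion arrays without passing. Of the 2 repair genes, Ung rose in both lesions. Ung, the uracil DNA glycosylase that cuts uracil out of DNA, read 8.10 and 8.36 in invasive carcinoma, 7.64 and 7.37 in carcinoma in situ, and 5.64 and 5.78 in normal urothelium. The groups stood in 3 steps, at 2.52 ± 0.19 (5.73-fold, adjusted p = 0.00108) in invasive carcinoma and 1.79 ± 0.19 (3.47-fold, adjusted p = 0.00802) in carcinoma in situ. Mcm8, a relative of the helicase subunits with a role in recombination, was below the array median on every array and did not pass.

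Invasive carcinoma against carcinoma in situ had 1 gene higher and 0 lower of 40, where 4.18% of all genes were higher and 1.31% lower. With normal array 2 and invasive array 1 left out, 8 were higher and 10 lower, in a fit where 2757 of all 18193 genes were higher and 3140 lower. With all arrays the median change was -0.11, beside -0.03 over all genes. The arrays of the lesions did not overlap for 9 genes that were higher in invasive carcinoma (26.4% of all genes) and 17 that were lower (31.4%). The call was Rrm2, at 0.90 ± 0.16 (1.86-fold, adjusted p = 0.0391). It was lost with each of the 4 lesion arrays left out in turn, with adjusted p between 0.121 and 0.378. The Rrm2 call also rests on 1 of 3 probe sets. Another read 9.29 and 8.56 in invasive carcinoma, 8.92 and 8.76 in carcinoma in situ, and 5.90 and 4.59 in normal urothelium. There the lesions overlapped and differed by 0.09 ± 0.47 (adjusted p = 0.964), and the remaining probe set differed by 0.05 ± 0.31 (adjusted p = 0.973). Both were called higher in either lesion against normal urothelium. The largest difference between the lesions was that of Cdc7, 1.34 ± 0.28 (adjusted p = 0.0575), followed among the genes higher in invasive carcinoma, after Rrm2, by Dbf4, 0.89 ± 0.23 (adjusted p = 0.105), Ung, 0.72 ± 0.19 (adjusted p = 0.104), and Rpa2, 0.62 ± 0.15 (adjusted p = 0.0924). Of these 4 none passed. Further probe sets of lower signal differed by -0.08 (Cdc7), -0.11 (Dbf4) and -0.55 (Rpa2) between the lesions, without passing. Among the genes lower in invasive carcinoma, Tyms (-0.87), Tk1 (-0.64), Dut (-0.62) and Chaf1b (-0.60) did not pass either.

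**Figure D3:**
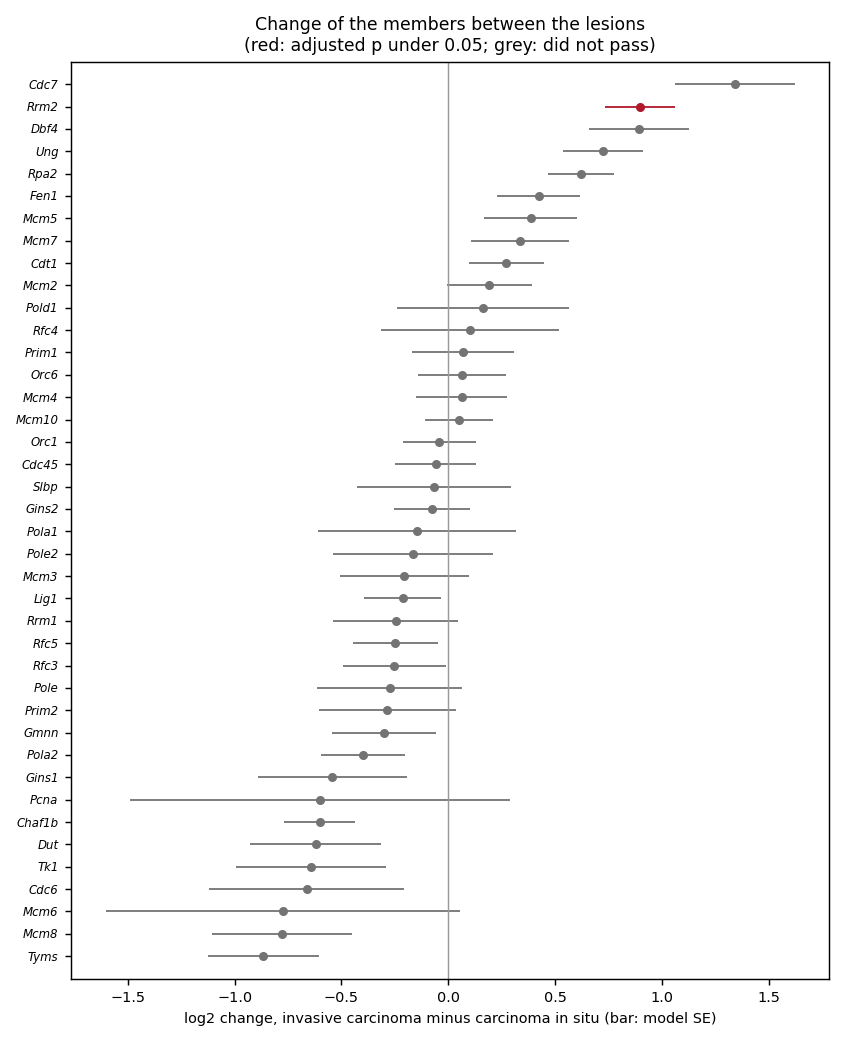
Difference in log2 signal, invasive carcinoma minus carcinoma in situ (x axis), for the 40 genes in order of size, with the model's standard error as bars. Rrm2, at 0.90, is the red point that passed, and Cdc7, at 1.34, is the largest.

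Other probe sets were present for 30 of the 40 genes, 46 in all, and were tested over 34945 probe sets. In invasive carcinoma 12 of the 46 rose and 1 fell, where 10.4% of all probe sets rose and 7.8% fell, and in carcinoma in situ 10 rose and 1 fell, where 4.71% rose and 2.88% fell. Mcm6 passed through a further probe set, which read 8.49 and 8.61 in invasive carcinoma, 8.75 and 8.35 in carcinoma in situ, and 6.11 and 4.91 in normal urothelium. Both lesions were far above normal there, at 3.04 ± 0.41 (adjusted p = 0.00731) in invasive carcinoma and 3.04 ± 0.41 (adjusted p = 0.0172) in carcinoma in situ. Cdc45 had a further probe set at 1.28 ± 0.17 (adjusted p = 0.00727) in invasive carcinoma, and Mcm7 had one at 0.89 ± 0.15 (adjusted p = 0.015), so that these helicase genes were called there by a probe set with lower signal. Pold1, the catalytic subunit of polymerase delta, had a further probe set that rose in both lesions, at 0.64 ± 0.16 (adjusted p = 0.047) in invasive carcinoma and 0.99 ± 0.16 (adjusted p = 0.027) in carcinoma in situ. Called genes also had further probe sets that were higher without passing. In invasive carcinoma these were at 1.12 ± 0.48 for Mcm4 (adjusted p = 0.179) and 1.51 ± 0.53 for Cdt1 (adjusted p = 0.115). Those of Fen1 and Rrm1 were at 2.26 ± 0.65 (adjusted p = 0.0688) and 0.29 ± 0.32 (adjusted p = 0.604) there. None of these 4 passed in carcinoma in situ. Mcm3 and Rrm2 had further probe sets that passed in both lesions. Slbp disagreed between probe sets. The one of lower signal read 7.19 and 7.33 in invasive carcinoma, 7.47 and 7.50 in carcinoma in situ, and 8.48 and 8.74 in normal urothelium. It fell, at -1.35 ± 0.17 (adjusted p = 0.00629) in invasive carcinoma and -1.13 ± 0.17 (adjusted p = 0.0227) in carcinoma in situ, where the probe set used was higher in both lesions without passing.

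Other genes of these processes were counted from a wider list. Of 55 further replication and nucleotide genes 7 rose and 1 fell in invasive carcinoma (median change 0.21), so that 12.7% of the list rose, against 12.6% of all genes. In carcinoma in situ 6 rose and 0 fell (median 0.32), so that 10.9% rose, against 5.74% of all genes. Pold2, the accessory subunit of polymerase delta, read 8.93 and 9.12 in invasive carcinoma, 9.33 and 9.16 in carcinoma in situ, and 7.41 and 7.27 in normal urothelium. All lesion arrays were above normal, at 1.69 ± 0.17 (adjusted p = 0.00256) in invasive carcinoma and 1.91 ± 0.17 (adjusted p = 0.00598) in carcinoma in situ. Dscc1, a subunit of an alternative clamp loader, rose by 1.70 ± 0.17 (adjusted p = 0.00256) in invasive carcinoma and by 1.88 ± 0.17 (adjusted p = 0.00637) in carcinoma in situ, although it was below the array median on every array. Rnaseh2a, which degrades RNA in RNA-DNA hybrids, rose by 1.20 in invasive carcinoma and by 1.75 in carcinoma in situ. Clspn, a mediator of the replication checkpoint, rose by 1.29 and 1.42 in these lesions. Gins3, the fellow subunit of Gins1 and Gins2, fell in invasive carcinoma, at -0.67 ± 0.15 (adjusted p = 0.0329). Ctps, which makes CTP, read 10.81 and 10.97 in invasive carcinoma, 9.59 and 9.67 in carcinoma in situ, and 8.92 and 8.45 in normal urothelium. The groups stood in 3 steps, and Ctps rose in invasive carcinoma by 2.20 ± 0.21 (adjusted p = 0.0022) against normal urothelium and by 1.26 ± 0.21 (adjusted p = 0.0286) against carcinoma in situ. Samhd1, which degrades deoxynucleotides and is abundant in myeloid cells, read 9.70 and 10.01 in invasive carcinoma, 8.03 and 7.92 in carcinoma in situ, and 7.78 and 8.34 in normal urothelium. Both invasive arrays were above all others, at 1.79 ± 0.24 (adjusted p = 0.00652) against normal urothelium and 1.88 ± 0.24 (adjusted p = 0.0138) against carcinoma in situ. Rrm2b, the p53-induced alternative to Rrm2, read 8.04 and 7.59 in invasive carcinoma, 8.09 and 8.25 in carcinoma in situ, and 8.24 and 8.16 in normal urothelium, and its change did not pass.

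Of 22 regulators of the E2F, Rb and S phase step, 8 rose in invasive carcinoma and 5 in carcinoma in situ, and 0 fell. These were 36.4% and 22.7% of the list, where 12.6% and 5.74% of all genes rose and 7.46% and 3.04% fell. Ccna2, the cyclin of S phase, read 8.94 and 9.13 in invasive carcinoma, 8.28 and 8.24 in carcinoma in situ, and 5.28 and 5.79 in normal urothelium. The groups did not overlap, at 3.50 ± 0.22 (adjusted p = 0.000744) in invasive carcinoma and 2.72 ± 0.22 (adjusted p = 0.00504) in carcinoma in situ. The repressive E2F factor E2f7 rose by 2.78 ± 0.22 (adjusted p = 0.00121) in invasive carcinoma and by 2.08 ± 0.22 (adjusted p = 0.00793) in carcinoma in situ. Uhrf1, which carries DNA methylation over to the new strand, rose by 2.42 and 2.73 in these lesions, and E2f8 rose by 2.25 in carcinoma in situ. Myb, a transcription factor of dividing progenitor cells, read 5.99 and 6.30 in invasive carcinoma, 3.90 and 4.27 in carcinoma in situ, and 4.03 and 4.20 in normal urothelium. Both invasive arrays were above all others, although Myb was above the array median only on invasive array 2. It rose in invasive carcinoma by 2.03 ± 0.21 (adjusted p = 0.00279) against normal urothelium and 2.06 ± 0.21 (adjusted p = 0.00652) against carcinoma in situ. The activating factor E2f1 read 8.16 and 8.29 in invasive carcinoma, 7.92 and 7.66 in carcinoma in situ, and 7.14 and 7.29 in normal urothelium, and rose in invasive carcinoma by 1.01 ± 0.18 (adjusted p = 0.0144). Ccne1, a cyclin of S phase entry, read 7.42 and 7.71 in invasive carcinoma, 7.86 and 7.63 in carcinoma in situ, and 7.27 and 6.89 in normal urothelium, and Rb1 read 8.57 and 8.35 in invasive carcinoma, 8.33 and 8.21 in carcinoma in situ, and 7.61 and 8.16 in normal urothelium. Neither passed.

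Promoters were read for the 34 members with a window in the RefSeq table of build GRCm38.p6, from 250 bases before to 50 bases after the gene's start. The E2F motifs searched on both strands were TTTCCCGC, TTTCGCGC, TTTGCCGC and TTTGGCGC, and 13 of the 34 members (38.2%) held a match, against 546 of 14368 measured genes with a window (3.8%). With calls from the probe set used, a match was held by 4 of 18 members called higher in a lesion. It was also held by 9 of the other 16, among them Cdc6, Mcm6, Mcm7, Orc1 and Pola1, so members with and without a called rise both held it. Among the latter, Mcm6, Mcm7 and Pold1 were called higher through a further probe set, so the split depends on the probe set rule. The CCAAT box, searched as CCAAT, was in 52.9% of members and 42% of measured genes. The CHR motif, searched as TTTGAA and TTCGAA, was in 20.6% of members and 17.5% of measured genes, and in 7 of 8 cell division markers. A match is a stretch of letters, not a measured binding site.

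The 4 promoters shown belong to the called genes with an E2F match, and the capitals mark the matches on the strand of the gene, some as the reverse complement of a motif. Counted from the first transcribed base as position 1, the match begins at position 27 in Lig1, 33 in Cdt1, and 20 and 39 in Mcm3. In Mcm5 it begins 153 bases before the start and is joined to another that begins 149 bases before it, with which it shares 4 bases. Lig1 has 3 windows in the table, of which 1 holds the match.
Lig1, chr7:13278576-13278875, plus strand: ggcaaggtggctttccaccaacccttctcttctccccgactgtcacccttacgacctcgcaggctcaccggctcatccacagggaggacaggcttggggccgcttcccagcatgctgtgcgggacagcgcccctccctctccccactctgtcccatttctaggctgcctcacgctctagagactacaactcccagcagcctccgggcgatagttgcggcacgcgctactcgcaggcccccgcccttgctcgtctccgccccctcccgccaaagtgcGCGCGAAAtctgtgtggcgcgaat
Cdt1, chr8:122567765-122568064, plus strand: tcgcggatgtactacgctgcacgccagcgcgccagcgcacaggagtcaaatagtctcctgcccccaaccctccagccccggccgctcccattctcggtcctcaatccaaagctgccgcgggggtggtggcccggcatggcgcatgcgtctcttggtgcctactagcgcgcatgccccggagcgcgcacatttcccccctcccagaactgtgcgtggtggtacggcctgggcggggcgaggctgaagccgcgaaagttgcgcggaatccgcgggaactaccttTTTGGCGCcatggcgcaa
Mcm3, chr1:20820263-20820562, minus strand: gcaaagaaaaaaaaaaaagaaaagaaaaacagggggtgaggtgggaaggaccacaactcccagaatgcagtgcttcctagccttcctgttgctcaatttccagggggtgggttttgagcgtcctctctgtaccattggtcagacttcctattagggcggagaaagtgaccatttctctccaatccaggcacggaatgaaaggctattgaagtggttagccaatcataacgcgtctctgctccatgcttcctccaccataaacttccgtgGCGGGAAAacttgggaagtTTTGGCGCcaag
Mcm5, chr8:75109259-75109558, plus strand: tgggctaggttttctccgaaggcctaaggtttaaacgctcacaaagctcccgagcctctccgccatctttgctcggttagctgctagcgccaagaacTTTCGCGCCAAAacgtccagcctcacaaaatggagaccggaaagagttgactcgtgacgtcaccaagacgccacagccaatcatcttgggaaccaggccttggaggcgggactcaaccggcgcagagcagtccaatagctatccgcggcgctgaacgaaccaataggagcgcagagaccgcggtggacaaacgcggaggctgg

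**Figure D4:**
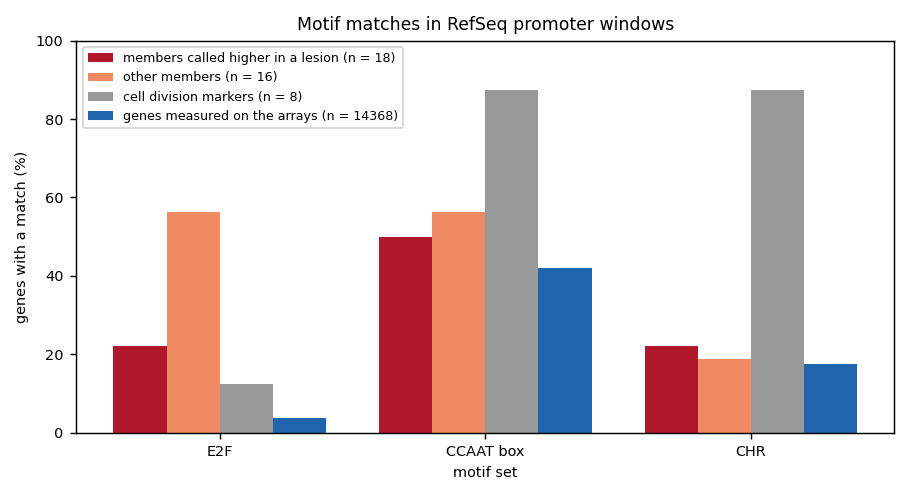
Share of genes (y axis, percent) whose promoter window holds at least 1 match to the E2F, CCAAT or CHR motifs, for the replication members and comparison sets. Members are drawn as those called higher in a lesion and the others. The E2F share is 22.2% in the members called higher, 56.2% in the other members and 3.8% in measured genes.

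Markers of the captured tissue also differed between the groups. The 13 urothelial markers, uroplakins and keratins among them, had a mean log2 signal of 11.27 and 11.04 in invasive carcinoma, 11.88 and 11.98 in carcinoma in situ, and 13.11 and 12.42 in normal urothelium. Of these 5 of 13 were lower in invasive carcinoma and 3 of 13 in carcinoma in situ. Those lower in invasive carcinoma were the uroplakins, Upk1a (-3.89), Upk1b (-3.30), Upk2 (-4.05), Upk3a (-5.99) and Upk3b (-2.52). In carcinoma in situ they were Upk1a (-2.08), Upk2 (-2.57) and Krt20 (-5.02). Upk1b still read 10.50 and 11.19 in invasive carcinoma, and Krt8 was level between the groups. The mean of the list thus hides a fall of the uroplakins. The 9 markers of cell division averaged 8.12 and 7.84 in invasive carcinoma, 7.65 and 7.71 in carcinoma in situ, and 5.10 and 5.10 in normal urothelium. They rose with the replication genes, 9 of 9 in invasive carcinoma and 8 of 9 in carcinoma in situ, and the replication genes averaged 8.27 and 8.25 in invasive carcinoma, 8.33 and 8.33 in carcinoma in situ, and 7.44 and 7.04 in normal urothelium. The 8 endothelial markers averaged 6.92 and 6.97 in invasive carcinoma, 6.89 and 7.0 in carcinoma in situ, and 5.17 and 4.96 in normal urothelium, with 8 of 8 higher in invasive carcinoma and 5 of 8 in carcinoma in situ, although Pecam1, Tie1 and Tek were below the array median on every array. The log2 of their summed signal was 10.37 and 10.62 in invasive carcinoma, 10.34 and 10.38 in carcinoma in situ, and 8.54 and 8.72 in normal urothelium. The 8 macrophage markers averaged 9.93 and 10.64 in invasive carcinoma, 8.32 and 8.35 in carcinoma in situ, and 7.27 and 7.25 in normal urothelium, with 7 of 8 higher in invasive carcinoma and 0 of 8 in carcinoma in situ, and the log2 of their summed signal was 13.83 and 14.52 in invasive carcinoma, 12.29 and 12.37 in carcinoma in situ, and 11.48 and 11.11 in normal urothelium. The 7 fibroblast markers averaged 10.88 and 11.89 in invasive carcinoma, 7.03 and 6.96 in carcinoma in situ, and 8.19 and 7.46 in normal urothelium, with 5 of 7 higher in invasive carcinoma, and 1 higher (Pdgfrb, 2.08) and 1 lower (Dcn, -4.99) in carcinoma in situ. The log2 of their summed signal was 14.71 and 15.52 in invasive carcinoma, 10.39 and 10.32 in carcinoma in situ, and 12.49 and 11.85 in normal urothelium. Of the markers of smooth muscle, neutrophils and lymphocytes, 1 of 7, 1 of 6 and 1 of 9 rose in invasive carcinoma and none in carcinoma in situ. In each lesion 1 of smooth muscle fell, and both arrays of carcinoma in situ lay below both normal arrays for 7 of 7 (25.1% of all genes). The 2 normal arrays differed in these lists. Their means were 8.63 and 7.34 for smooth muscle, 6.45 and 4.94 for neutrophils, and 5.43 and 6.37 for lymphocytes. Single markers were further apart, such as S100a8 at 8.76 and 4.66 and Ms4a1 at 4.96 and 9.22. Beside these marker counts, 12.6% of all genes rose and 7.46% fell in invasive carcinoma, and 5.74% rose and 3.04% fell in carcinoma in situ. The part of these cells in the replication results was not tested, and in captured tissue more dividing cells and more RNA per cell cannot be told apart.

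**Figure D5:**
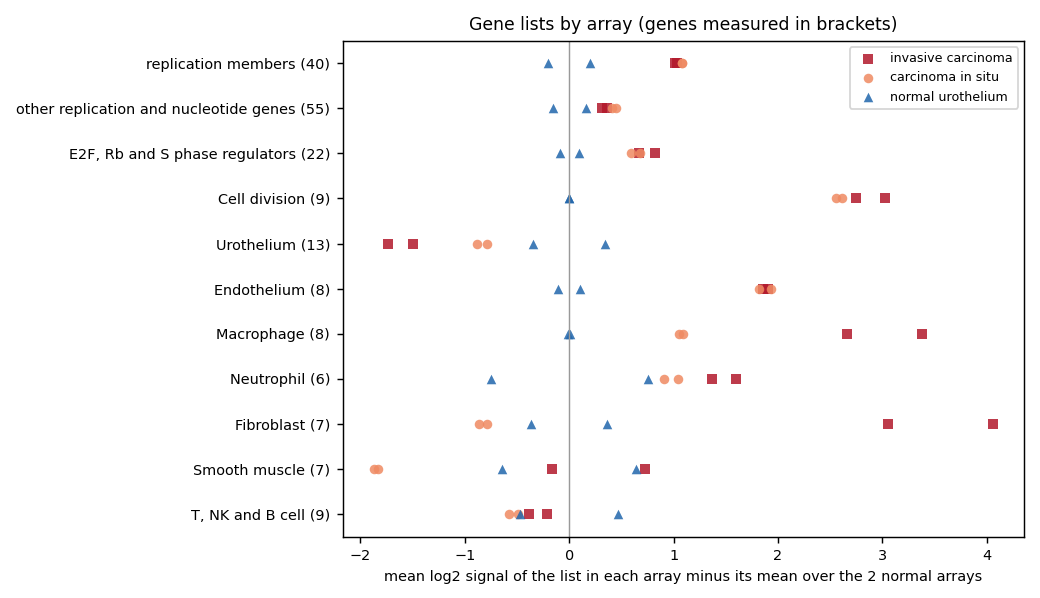
Mean log2 signal of each gene list in every array (x axis), minus its mean over the 2 normal arrays, with the number of genes measured in brackets and 1 point per array. Cell division markers and replication genes are right of normal in all 4 lesion arrays, and fibroblast markers are far right in the invasive arrays.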

How the data were processed

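Total RNA was taken from laser-captured cells of stained frozen sections with a column kit, and 100 ng per sample was labelled for Affymetrix 3' expression arrays, per the labels' protocols. Partek and RMA were used by the authors, per the submitters' processing notes, with no version given, and the deposited table holds log2 signals of 45101 probe sets on 6 arrays. A deposited table of signed fold changes between groups was compared with those values and not used further. Of the probe sets 34958 had 1 gene symbol in the array annotation, 932 several and 9211 none, and 64 were controls. The 34945 probe sets with 1 symbol that were no controls gave 18193 genes. No source used here gave the authors' genome build, and promoters come from RefSeq windows of GRCm38.p6. The genes altered in the mice were not used here as a check of genotype.

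Group means of the 3 groups were fitted to all 6 arrays together with limma 3.58.1 (R 4.3.3; eBayes, 3 residual and 2.69 prior degrees of freedom). Dim probe sets were kept. Two-sided p-values received Benjamini-Hochberg adjustment across the 18193 genes, and an adjusted p under 0.05 was a call. A change is the difference of 2 group means in log2 signal ± the model's standard error, with n = 2 arrays per group, and their small number limits the precision. The code was tested on simulated data. Members and gene lists were chosen with earlier results of these data known. Values in full are given for up to 3 called members per role with the largest change, and for every member called lower or between the lesions. Each other list gives up to 4 called members per comparison. Alternatives were other scalings, probe set rules, filters and variance models, a replicate block, and left-out arrays.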

Additional observations from a re-analysis of the deposited data

How the results depend on the processing

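Counts are of genes called higher and lower, and no named change called in the report reversed its sign under any alternative. Leaving out any 1 array gave, for the replication genes, 9 to 29 higher and 0 to 2 lower in invasive carcinoma against normal urothelium, 0 to 30 higher and 0 to 0 lower in carcinoma in situ against normal urothelium, and 0 to 4 higher and 0 to 1 lower between the lesions. The low end in carcinoma in situ came with either array of that group left out. The 55 further replication genes gave 4 to 19 higher and 0 to 5 lower, 0 to 21 and 0 to 2, and 0 to 2 and 0 to 3 in the same order of comparisons, and all genes gave 1201 to 3290 and 436 to 2462, 0 to 2652 and 0 to 1544, and 49 to 1485 and 1 to 1008. With both carcinoma in situ arrays averaged to 1 sample, the replication genes gave 11 and 0, 0 higher, and 0 higher, the further genes 0 lower, 0 higher and 0 higher, and all genes 1241 and 591, 0 and 0, and 54 and 1. Fewer samples and residual degrees of freedom enter these fits. Without normal array 2 and invasive array 1, the replication genes gave 5 lower in invasive carcinoma, 28 and 2 in carcinoma in situ and 8 and 10 between the lesions, the further genes 16 and 13, 15 and 4, and 5 and 16, and all genes 4448 and 3717, 3526 and 2826, and 2757 and 3140. A fit to the arrays of 2 groups alone gave 11 and 0 replication genes in invasive carcinoma and 4 and 1 between the lesions, 0 further genes lower in invasive carcinoma and 3 lower between the lesions, and over all genes 1241 and 591, 649 and 298, and 1485 and 1008. Testing every probe set raised the calls to 3643 and 2725 in invasive carcinoma and 1646 and 1007 in carcinoma in situ, over more features. The mean of a gene's probe sets gave 0 replication genes lower in invasive carcinoma and 0 higher between the lesions, and among the further genes 10 higher in carcinoma in situ, 2 lower in invasive carcinoma, and 1 higher and 2 lower between the lesions. With genes of a mean of at least 6 only, Tyms was not among the genes tested, so 0 replication genes were lower in invasive carcinoma, and 0 were higher between the lesions. Median centring gave 1 further gene lower in carcinoma in situ and quantile normalization 2 in invasive carcinoma.

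The labels did not say whether the replicate numbers pair the arrays. The correlation of deviations over 18193 genes was -0.385 between carcinoma in situ and normal urothelium, 0.375 between invasive carcinoma and normal urothelium, and -0.344 between the lesions. With 1 difference per group, these values cannot decide whether arrays were paired. With a replicate block 17 replication genes were higher in invasive carcinoma and 12 in carcinoma in situ, 0 between the lesions, and of the further genes 0 were lower in invasive carcinoma and 1 was higher between the lesions. Except where fewer samples or features are named, the cause of a change was not tested.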
